A study of Mus musculus with 24 samples.

Results

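Small RNA from round spermatids, the haploid germ cells formed by meiosis, was compared between homozygous and heterozygous carriers of a DDX4 knock-in allele over 214 piRNA clusters. The comparison used 4 of the 24 libraries of the series: homozygous libraries 1 and 2 and heterozygous libraries 1 and 2, chosen by their labels. The heterozygous mice carry the knock-in allele too, so the comparison is of 2 copies against 1 and not against unmodified cells. Wild-type round spermatids and pachytene spermatocytes of the homozygous, heterozygous and wild-type genotypes (2 libraries each) are given beside them. Small RNA was taken from testicular fractions enriched for each cell type, after a digestion in 2 steps, and no marker gene can be read in files that hold clusters alone. Strain, age and the number of animals are not stated, and the labels number the libraries without saying that they came from separate animals. The p-values below therefore measure the spread between these libraries, which may be technical.

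PIWI-interacting RNAs, or piRNAs, are small RNAs of animal germ cells that are cut from long single-stranded transcripts of a limited set of loci, the piRNA clusters, and are bound by PIWI proteins. In the mouse, prepachytene clusters are mostly genes whose 3' untranslated regions yield piRNAs from before meiosis on, pachytene clusters are mostly long intergenic loci switched on at the pachytene stage by the transcription factor A-MYB (Mybl1), and hybrid clusters lie between these types. DDX4, also called mouse VASA homolog, is a DEAD-box helicase found in germ granules, among them the chromatoid body of round spermatids.

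Reads were counted per cluster, and the mature miRNA and promoters shown here are those that RefSeq (GRCm38.p6) places in or at clusters on which the results turn. The first is annotated inside the cluster with the largest gain in share, 5-qF-4633.1, at chr5:114851973-114851998 on the plus strand. Its bases resemble a stretch of 28S ribosomal RNA, and where inside the cluster the counted reads fall was not analysed here. Capitals mark its seed, bases 2 to 8.
mmu-miR-6240: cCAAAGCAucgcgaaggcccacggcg
The next promoters are examples of those that lie in the gap between close neighbouring clusters or at the edge of one. The window of Gm10505, chr17:27324946-27325245 on the plus strand, spans the 168 bases between 17-qA3.3-27363.1 and 17-qA3.3-26735.1. The window of Gm10619, chr7:73816454-73816753 on the minus strand, spans the 125 bases between 7-qD2-24830.1 and 7-qD2-11976.1. The window of 1700008K24Rik, chr17:49113484-49113783 on the minus strand, lies at the edge of 17-qC-935.1, among the clusters that fell most. Each window runs from 250 bases before to 50 bases after the gene's start, 5' to 3', and capitals mark the core of the motif bound by MYB proteins, AACTG, or its reverse complement CAGTT.
Gm10505: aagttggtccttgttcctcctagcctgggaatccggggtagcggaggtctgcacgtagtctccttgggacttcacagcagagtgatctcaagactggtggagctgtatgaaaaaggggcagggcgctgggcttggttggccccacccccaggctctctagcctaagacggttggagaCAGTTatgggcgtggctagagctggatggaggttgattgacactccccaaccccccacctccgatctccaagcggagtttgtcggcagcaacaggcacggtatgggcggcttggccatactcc
Gm10619: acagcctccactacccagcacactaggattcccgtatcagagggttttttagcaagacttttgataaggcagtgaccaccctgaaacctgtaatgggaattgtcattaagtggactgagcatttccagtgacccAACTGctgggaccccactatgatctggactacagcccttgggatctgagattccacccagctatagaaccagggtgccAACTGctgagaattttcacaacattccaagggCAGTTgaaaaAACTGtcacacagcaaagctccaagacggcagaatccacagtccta
1700008K24Rik: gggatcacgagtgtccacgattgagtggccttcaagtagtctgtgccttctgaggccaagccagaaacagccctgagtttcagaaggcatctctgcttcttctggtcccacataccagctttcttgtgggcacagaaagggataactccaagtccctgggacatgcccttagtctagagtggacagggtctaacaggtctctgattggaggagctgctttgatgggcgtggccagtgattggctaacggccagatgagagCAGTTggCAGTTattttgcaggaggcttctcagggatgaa
Read on both strands, these letters occur in 44.8% of all 32851 RefSeq promoter windows of this length. They occur in 34.8% of the 112 windows within 1000 bases of a prepachytene cluster, in 64.9% of 37 at hybrid clusters and in 53.0% of 83 at pachytene clusters. At pachytene clusters the share was 10 of 23 windows where the cluster rose, 23 of 42 where it fell and 12 of 19 where it did not pass the test, counting a window once for each such kind of cluster it touches. All promoter windows printed above hold the letters, which is not so of every window at such places. Of 4 windows in the gaps of close neighbours 3 hold them, and that of LOC108168693, not printed, does not. The window of Bclaf1 at 10-qA3-143.1, a cluster that fell, does not hold them either. A match is a description of the letters and not a binding site.

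The homozygous spermatid libraries held 11.7 M and 9.23 M cluster reads (M, 1e6), the heterozygous ones 21.7 M and 22.1 M, and the other 8 small RNA libraries more than these and up to 27.3 M. Each library was most like the other library of its group, with a Pearson correlation of log2 shares over clusters of 0.987 within the homozygous spermatid pair and 0.999 within the heterozygous pair. Across cell types the likeness over pachytene clusters did not follow the labelled genotype. Over the 100 pachytene clusters, homozygous spermatids were most like wild-type spermatocytes (Pearson r = 0.979 of log2 mean shares), heterozygous spermatids were most like homozygous spermatocytes (0.996), and wild-type spermatids were most like heterozygous spermatocytes (0.997). The correlations between the cell types of 1 genotype were lower, at 0.931 for homozygous, 0.969 for heterozygous and 0.976 for wild type. Over prepachytene and hybrid clusters the highest correlation was also with another genotype. By median absolute log2 difference, however, heterozygous spermatids were closest to heterozygous spermatocytes there. The values were 0.45 over prepachytene and 0.42 over hybrid clusters, against 0.66 and 0.43 with homozygous spermatocytes. These values describe clusters that share libraries and have no test. What sets this order of likeness, including animal, strain background, batch, cell purity and labelling, was not tested, and genotype cannot be told apart from whatever else differed between the labelled groups. Genotype is used below as the labels give it, and wild-type and spermatocyte shares stand beside the main results.

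**Figure D1:**
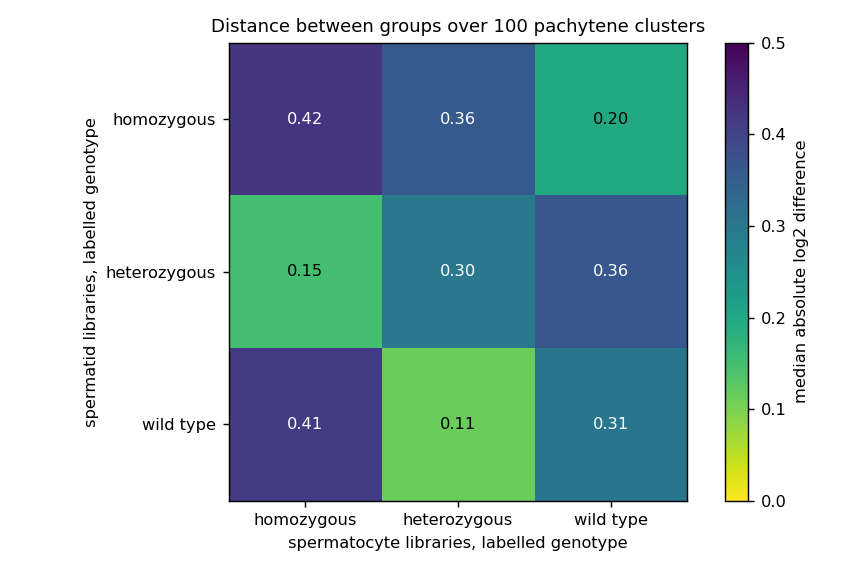
The grid plots, for each labelled genotype of spermatids (rows) against each of spermatocytes (columns), the median absolute log2 difference in share over 100 pachytene clusters. The smallest value of each row lies off the diagonal of equal genotype: 0.20 for homozygous spermatids with wild-type spermatocytes, 0.15 for heterozygous spermatids with homozygous spermatocytes and 0.11 for wild-type spermatids with heterozygous spermatocytes.

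Most clusters differed in their share of cluster reads. Of 214 clusters, 160 passed the test (74.8%), 88 of them higher (41.1%) and 72 lower (33.6%) in homozygous than in heterozygous spermatids (edgeR quasi-likelihood test on 12 libraries, Benjamini-Hochberg adjusted p below 0.05). The shares of the groups did not overlap in 175 clusters (81.8%), and 41 clusters (19.2%) passed the test with a log2 change beyond 1. Other contrasts of the same fit called as many: homozygous against wild-type spermatids 82.2% and homozygous against heterozygous spermatocytes 80.4% (60.3% higher and 20.1% lower). In 51 clusters (23.8%) both homozygous spermatid libraries lay outside the range of the other 10 small RNA libraries, 28 above and 23 below it. Wild-type spermatids stood outside the other libraries most often, in 18 clusters above and 93 below. The counts were 29 above and 6 below for heterozygous spermatids, 47 and 27 for homozygous, 5 and 6 for heterozygous and 11 and 17 for wild-type spermatocytes.

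A share rises when the reads of other clusters drop, so changes are relative. The median cluster had a log2 change of 0.18 under shares and 0.07 under TMM scaling. The log2 changes of clusters that follow are given relative to the median cluster under shares, unless said otherwise. Changes called fitted are not centred in this way. The SE and p-values printed beside centred changes belong to the fitted change, which was tested against 0. Higher calls made up 55.0% of calls under shares and 48.4% under TMM scaling. In bulk fractions, fewer cells of a type and less RNA per cell cannot be told apart.

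**Figure D2:**
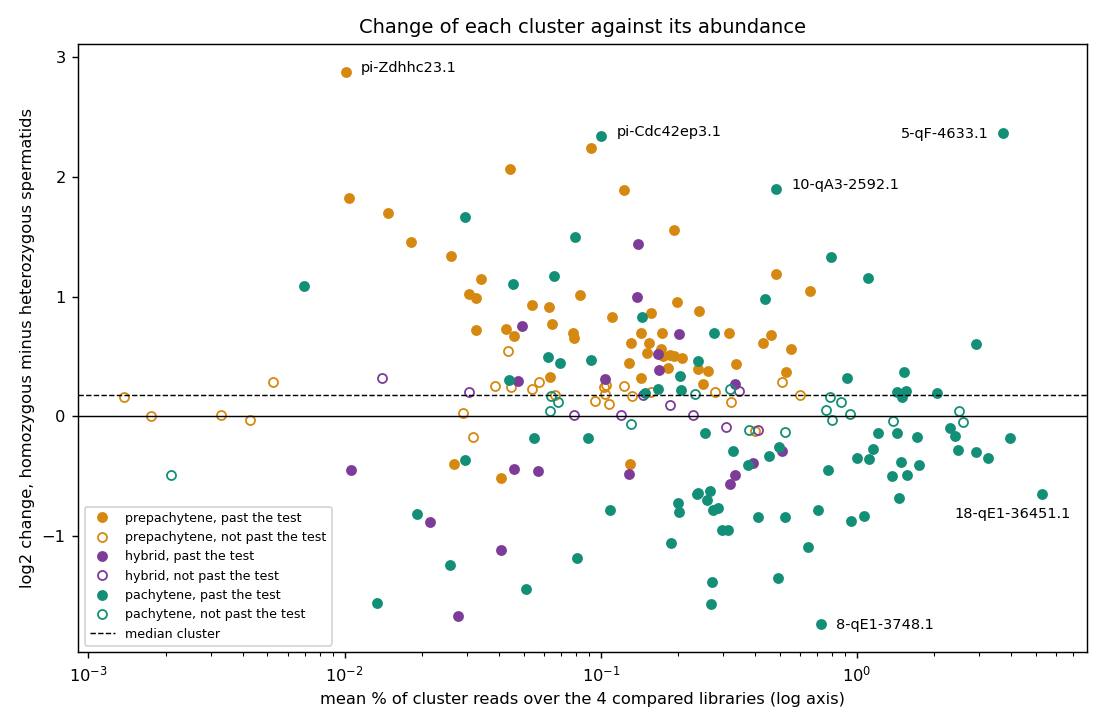
Each point is a cluster listed in all libraries, with its mean percent of cluster reads over the 4 compared libraries (log axis) and its fitted log2 change, homozygous minus heterozygous spermatids, not centred on the median cluster (dashed line, 0.18). Filled points passed the test. Prepachytene clusters lie mostly above 0, pachytene clusters spread to both sides, and 5-qF-4633.1 stands alone among the abundant clusters above a change of 1.5.

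The 3 classes moved unequally. Prepachytene clusters took 15.0 and 13.9% of cluster reads in homozygous libraries 1 and 2, against 10.7 and 9.24% in heterozygous libraries 1 and 2. Pachytene clusters took 79.9 and 81.0% in homozygous spermatids, against 84.0 and 85.8% in heterozygous spermatids. Hybrid clusters took 5.06 and 5.14%, against 5.27 and 4.97%, and their ranges overlapped. The mean differences were 4.49 percentage points for prepachytene, -4.47 for pachytene and -0.02 for hybrid clusters (n = 2 each). The exact permutation test over libraries gave p = 0.333 for prepachytene and for pachytene clusters, the smallest two-sided p that 2 against 2 allows.

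Wild-type spermatids had the lowest prepachytene share, 5.88 and 5.06%, so among spermatids the order was homozygous, heterozygous, wild type. Spermatocytes did not keep that order: the prepachytene share was 16.7 and 15.0% in homozygous, 7.26 and 7.52% in heterozygous and 14.2 and 14.0% in wild-type libraries.

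**Figure D3:**
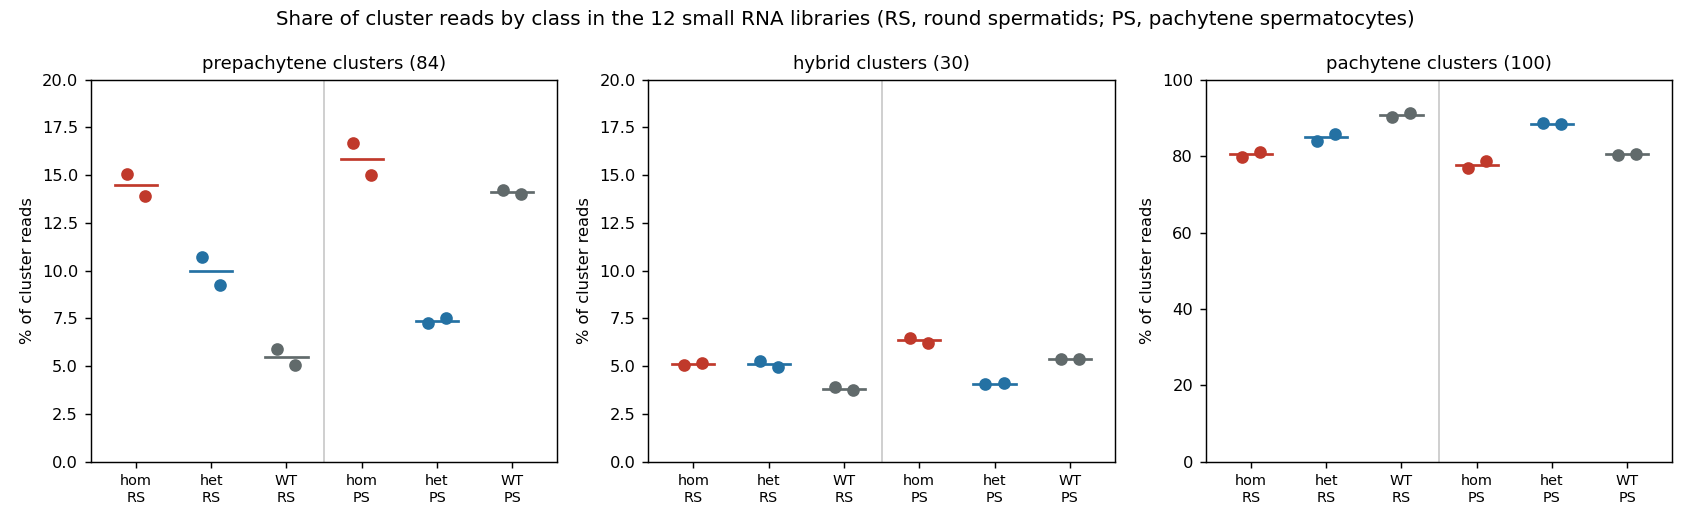
Percent of cluster reads (vertical axes, from 0; 20 at the top for the first 2 panels and 100 for the last) in prepachytene, hybrid and pachytene clusters for each of 12 libraries. Points are libraries and lines are means of 2. The homozygous spermatid points lie above the heterozygous ones for prepachytene and below them for pachytene clusters, and overlap with them for hybrid clusters.

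Cluster by cluster, 50 of 84 prepachytene clusters rose (59.5%) and 7 fell (8.33%), beside 41.1% and 33.6% of all clusters. Of the 7 falls, 4 were clusters not listed in a homozygous file and counted as 0; of the 79 listed in all libraries 50 rose and 3 fell. Their median log2 change was 0.31 above that of all clusters. Of 100 pachytene clusters 29 rose and 54 fell, with a median of -0.35. Of 30 hybrid clusters 9 rose and 11 fell, with a median of -0.17. The class largely coincides with where a cluster lies, since 81 of the 84 prepachytene clusters carry a gene's name and 93 of the 100 pachytene clusters are intergenic. Over the 209 clusters listed in every library, the Spearman correlation of the change with cluster length was 0.27 and with mean share -0.24, as a description across clusters. Within classes, the correlation with length was 0.05 over prepachytene, 0.37 over hybrid and 0.14 over pachytene clusters. That with mean share was 0.005, 0.09 and -0.009, so the pooled value with mean share was not seen within a class.

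The largest gain was in the pachytene cluster 5-qF-4633.1 (mm10, chr5:114834170-114853587, 19417 bases), which overlaps the noncoding genes Gm46920 and Gm13821 and the annotated Mir6240. It took 6.49 and 5.94% of cluster reads in homozygous libraries 1 and 2, against 1.19 and 1.22% in heterozygous libraries 1 and 2. The groups lay far apart, and the other 8 libraries were near the heterozygous level, at 1.55 and 1.54% in wild-type spermatids, 1.14 and 1.12% in homozygous, 1.36 and 1.44% in heterozygous and 1.57 and 1.58% in wild-type spermatocytes. The share was 5.16-fold higher in homozygous spermatids, a gain of 5.01 percentage points and 2.19 log2 units above the median cluster (SE 0.0433, adjusted p = 1.09e-10). The cluster ranked 1 of 214 in homozygous and 29 in heterozygous spermatids. With it left out, pachytene clusters took 78.5 and 79.8% of the remaining reads in homozygous and 83.8 and 85.6% in heterozygous spermatids. Of 31 clusters that overlap a RefSeq miRNA, snRNA or snoRNA gene, 14 rose and 10 fell, shares near the 41.1% and 33.6% of all clusters.

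The most abundant cluster in heterozygous spermatids, 18-qE1-36451.1 (pachytene), had the largest loss in share. This locus is known as pi18, and its loss in mice is reported to impair sperm. It took 4.002 and 4.18% in homozygous libraries, against 6.30 and 6.56% in heterozygous libraries. The groups did not overlap, and wild-type spermatids lay between them at 4.90 and 4.95%. The loss was 2.34 percentage points, a log2 change of -0.83 (SE 0.0273, adjusted p = 4.25e-08). Among all other clusters, 8-qC5-8200.1 (Pearson r = 0.969), 4-qB3-3994.1 (0.963), 8-qE1-3748.1 (0.955), 8-qC5-2209.1 (0.944) and pi-1700006A11Rik.1 (0.944) had log2 shares most like it over the 12 small RNA libraries.

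**Figure D4:**
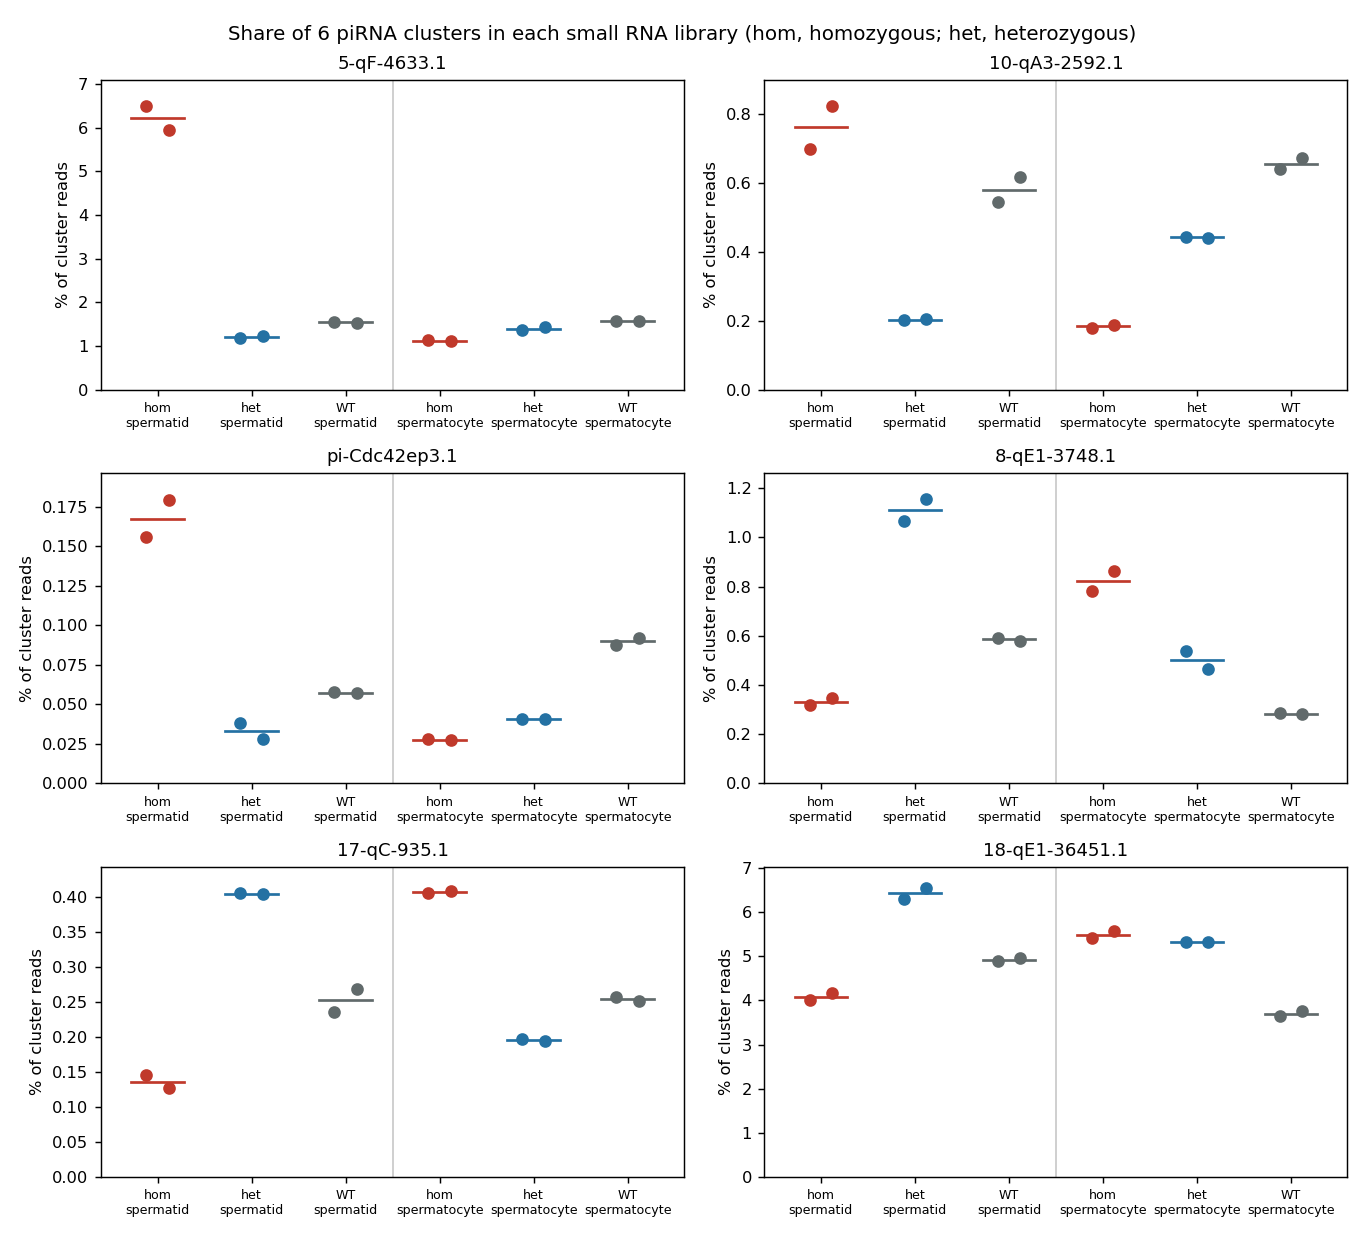
Percent of cluster reads (vertical axes, from 0, own scale per panel) of 6 clusters in the 12 small RNA libraries. Points are libraries and lines are means of 2. In 5-qF-4633.1 and pi-Cdc42ep3.1 the homozygous spermatids stand above all other groups, while in 10-qA3-2592.1 and 17-qC-935.1 heterozygous spermatids and homozygous spermatocytes lie close together.

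Among other pachytene clusters that rose, pi-Cdc42ep3.1 lies in the gene of a CDC42 effector protein (chr17:79334678-79354890). It held 0.156 and 0.179% in homozygous spermatids, against 0.0380 and 0.0280% in heterozygous spermatids. The homozygous values were the highest of all 12 libraries, and the next were those of wild-type spermatocytes, 0.0876 and 0.0923%. The log2 change was 2.16 (SE 0.137, adjusted p = 2.85e-07).

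The intergenic cluster 10-qA3-2592.1 held 0.700 and 0.826% in homozygous spermatids, against 0.202 and 0.206% in heterozygous spermatids, a log2 change of 1.72 (SE 0.084, adjusted p = 5.45e-08). Wild-type spermatids lay between them, nearer to the homozygous values, at 0.544 and 0.618%. In spermatocytes the order was turned round, with 0.181 and 0.188% in homozygous and 0.445 and 0.441% in heterozygous libraries.

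In 7-qD1-19431.1 the share was 1.14 and 1.13% in homozygous spermatids, against 0.440 and 0.462% in heterozygous spermatids. It was higher still in wild-type spermatids, at 1.90 and 1.95%, so the homozygous value lay between the other genotypes. The clusters 15-qD3-14639.1 (1.54 and 1.52% against 0.686 and 0.688%) and 15-qE1-8387.1 (0.563 and 0.597% against 0.287 and 0.301%) also had wild-type spermatids above both. Of the 10 clusters most abundant over the compared libraries, 5-qF-14224.1 was the only other that rose, with 3.34 and 3.71% in homozygous and 2.29 and 2.34% in heterozygous spermatids.

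Prepachytene clusters with the largest rises were small. pi-Ppp1r15b.1, in the gene of a regulatory subunit of protein phosphatase 1, held 0.116 and 0.187% in homozygous spermatids, against 0.0366 and 0.0276% in heterozygous spermatids (log2 2.06, SE 0.219, adjusted p = 1.01e-05). pi-Hif1an.1, in the gene of the asparagine hydroxylase that restrains HIF1, held 0.0163 and 0.0162%, against 0.00417 and 0.00502% (log2 1.64). pi-Igsf9b.1, in the gene of a neural cell adhesion protein, held 0.0217 and 0.0234%, against 0.00623 and 0.00762% (log2 1.52). In all 3 the homozygous spermatid libraries were the highest of the 12.

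Other rises came unevenly from the homozygous libraries. pi-Zdhhc23.1, in the gene of a palmitoyltransferase, held 0.0275% in homozygous library 1 and 0.00810% in library 2, against 0.00262 and 0.00222% in heterozygous libraries 1 and 2. Its fitted log2 change of 2.88, the largest of all, was 1.74 without homozygous library 1 and 3.51 without homozygous library 2. pi-Rab11fip4.1 (0.100 and 0.0433% against 0.0185 and 0.0157%), pi-Tfcp2l1.1 (0.260 and 0.129% against 0.0566 and 0.0484%) and pi-1700016M24Rik.1 (0.0619 and 0.0276% against 0.0148 and 0.0134%) were uneven too. Their fitted log2 changes of 2.07, 1.89 and 1.67 were 1.34, 1.29 and 0.97 without homozygous library 1, and each still passed the test.

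The largest falls among listed clusters were pachytene or hybrid. The intergenic 8-qE1-3748.1 (chr8:110117665-110132456) held 0.317 and 0.348% in homozygous spermatids, against 1.06 and 1.16% in heterozygous spermatids. The heterozygous share was 3.34-fold higher, and wild-type spermatids lay between at 0.591 and 0.579%. The log2 change was -1.92 (SE 0.0817, adjusted p = 7.72e-08).

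The short cluster 17-qC-935.1 (chr17:49112270-49113511), which overlaps 1700008K24Rik, held 0.145 and 0.127% in homozygous spermatids, against 0.405 and 0.404% in heterozygous spermatids (log2 -1.75, adjusted p = 9.53e-08). Both homozygous values were the lowest of all 12 libraries, whereas homozygous spermatocytes had 0.406 and 0.408%, the level of heterozygous spermatids. Homozygous spermatids were also the lowest of all 12 libraries for 10-qA3-143.1 (0.00688 and 0.00667% against 0.0194 and 0.0206%), at Bclaf1, and for 13-qA3.1-213.1 (0.0273 and 0.0278% against 0.0749 and 0.0747%), at Zfp389. The hybrid cluster pi-Exoc8.1, in the gene of an exocyst subunit, held 0.0139 and 0.0127% in homozygous and 0.0405 and 0.0443% in heterozygous spermatids. Wild-type spermatids had 0.0140 and 0.0125%, so homozygous and wild-type values of pi-Exoc8.1 overlapped.

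The pachytene cluster pi-1700006A11Rik.1 held 0.162 and 0.139% in homozygous spermatids, against 0.381 and 0.408% in heterozygous spermatids (log2 -1.57, adjusted p = 2.39e-07). The clusters 10-qC1-2617.1 (1.13 and 1.12% against 1.78 and 1.83%), 6-qC3-6258.1 (0.397 and 0.423% against 0.852 and 0.896%) and 18-qE1-1295.1 (0.205 and 0.200% against 0.391 and 0.393%) also fell. In the first 2 of these, homozygous spermatids were the lowest of the 12 libraries.

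Long-studied pachytene loci had smaller changes. Of the pair on chromosome 17 on either side of the Gm10505 promoter printed above, 17-qA3.3-26735.1 took 2.42 and 2.64% in homozygous and 2.45 and 2.46% in heterozygous spermatids, overlapping values whose fitted log2 change of 0.04 did not pass the test, was -0.07 under TMM scaling, and passed at 0.11 without homozygous library 1 (adjusted p = 0.00962). Its partner 17-qA3.3-27363.1 took 2.10 and 2.30%, against 1.91 and 1.93%, a fitted log2 change of 0.20 that passed under shares (adjusted p = 0.001) but not under TMM, RLE or DESeq2 scaling. At the pi6 locus, needed for normal sperm function in mice, 6-qF3-28913.1 fell to 2.90 and 2.83% in homozygous spermatids, against 3.63 and 3.66% in heterozygous spermatids. Its fitted log2 change was -0.35 (adjusted p = 6.13e-07), or -0.53 relative to the median cluster. Its neighbour 6-qF3-8009.1 took 0.965 and 0.918%, against 0.930 and 0.930%. The fitted log2 change of 6-qF3-8009.1 was 0.02, which did not pass the test, and -0.10 under TMM scaling.

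2-qE1-35981.1 fell to 3.65 and 3.79%, against 4.18 and 4.26% in heterozygous spermatids (log2 -0.36), and 9-qC-10667.1 fell to 1.16 and 1.13%, against 1.60 and 1.63% (log2 -0.68). 9-qC-31469.1 took 2.52 and 2.61%, against 2.61 and 2.68%, and did not pass the test (adjusted p = 0.0826), but passed as a fall under TMM scaling (fitted log2 -0.16, adjusted p = 0.000614) and without homozygous library 2 (0.0132). At the Gm10619 promoter printed above, 7-qD2-24830.1 (2.25 and 2.28% against 2.51 and 2.58%) and 7-qD2-11976.1 (0.994 and 1.09% against 1.23 and 1.29%) both fell, by log2 changes of -0.35 and -0.45. Of the remaining clusters at these bands, 6-qF3-1063.1 (-0.57), 6-qF3-3040.1 (-0.67) and 17-qA3.3-352.1 (-0.96) fell, and 7-qD2-40.1 (0.07, adjusted p = 0.0776) did not pass the test. 7-qD2-40.1 passed with the 5 most abundant clusters left out (0.0377) and without heterozygous library 1 (0.0196, fitted log2 0.40, against 0.25 with all libraries). The abundant 15-qD1-17920.1 (-0.46) and 5-qG3-23659.1 (-0.48) fell as well.

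Close neighbours did not always move together. In 15 pairs, clusters lay 38 to 195 bases apart, a grouping made after the values were seen. Both members passed the test in 10 pairs, in the same direction in 6 and in opposite directions in 4. Of all clusters 74.8% passed, 41.1% higher and 33.6% lower. The changes had the same sign in 9 of the 15 pairs (Spearman correlation 0.27, as a description). Pairs of clusters lying further apart were not counted, so these counts do not show whether neighbours moved more alike than other clusters. The widest split was at 7-qD1, where 7-qD1-19431.1 had a fitted log2 change of 1.33 and its neighbour 7-qD1-654.1 one of -0.80. At 5-qF, 5-qF-14224.1 had 0.61 and 5-qF-14508.1 -0.41. The median absolute difference between the members of a pair was 0.37 log2 units.

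5 clusters, all prepachytene, were not listed in at least 1 homozygous file and were counted as 0 there. pi-Mafg.1, in the gene of a small MAF transcription factor, had 0 and 0 reads in homozygous libraries 1 and 2, against 238 and 211 reads in heterozygous libraries 1 and 2. Its share was at least 71.5-fold lower in homozygous spermatids, taking 3 counts over both libraries as the floor. 1-qE2.3-2.1, of 122 bases at Clasp1, had 0 and 0 reads, against 101 and 93 (at least 30.9-fold lower), and pi-Hist1h1a.1, at a linker histone gene, had 0 and 0 reads, against 72 and 78 (at least 23.9-fold lower). These bounds cover counting error alone, because reads that carry no molecular identifier can be copies of a molecule, and they hold only if an unlisted cluster had no reads.

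pi-Lsmd1.1, at Naa38, had 86 and 0 reads in homozygous libraries, against 358 and 387 in heterozygous libraries (adjusted p = 0.0299). It no longer passed without heterozygous spermatid library 1 (adjusted p = 0.0696) or 2 (0.0871), or without heterozygous spermatocyte library 1 (0.0506) or 2 (0.0505). pi-Foxo3.1, at a forkhead transcription factor gene, had 0 and 80 reads, against 58 and 43, so its values overlapped and it did not pass the test (adjusted p = 0.446), though it passed without homozygous library 1 (0.00161) and, in the other direction, without homozygous library 2 (0.0027). The lowest counts listed in the homozygous files were 86 and 68 reads, whereas other files listed clusters down to 15 reads. Whether a missing cluster had no reads or was left out of the file cannot be told apart. Set to the lowest count listed in the same file instead of 0, 1-qE2.3-2.1 and pi-Hist1h1a.1 turned to fitted log2 changes of 0.73 and 1.10, both past the test, pi-Mafg.1 fell by 0.48 and pi-Lsmd1.1 by 1.21, and pi-Foxo3.1 rose by 1.79.

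The change between genotypes was set beside that in spermatocytes of the same labels, which share no library with it. The change differed between cell types in 160 of 214 clusters (74.8%), with 42 more positive in spermatids (19.6%) and 118 more negative (55.1%) under shares (edgeR interaction test). That split depended on the scaling: 58 and 103 under TMM, 80 and 61 under RLE and 82 and 62 by DESeq2. Of all 209 clusters listed everywhere, 56 rose in both cell types, 21 rose in spermatids and fell in spermatocytes, 39 fell in spermatids and rose in spermatocytes and 14 fell in both. Among 79 prepachytene clusters these counts were 47, 0, 3 and 0.

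Pachytene clusters that passed the test in both cell types were spread otherwise: 27 of 100 fell in spermatids and rose in spermatocytes, 20 rose in spermatids and fell in spermatocytes, 14 fell in both and 2 rose in both. Over all 100 pachytene clusters the Spearman correlation of both changes was -0.68, beside -0.14 over prepachytene, -0.05 over hybrid and 0.13 over all listed clusters. These values describe clusters from the same 8 libraries. Heterozygous spermatids and homozygous spermatocytes, alike over pachytene clusters (r = 0.996), enter the 2 changes with opposite signs. The negative correlation and the interaction calls cannot be told apart from that likeness, whose cause was not tested. In 7-qD1-19431.1, homozygous spermatocytes had 0.386 and 0.399% and heterozygous spermatocytes 1.56 and 1.55%, the reverse of the order in spermatids. In 8-qE1-3748.1, homozygous spermatocytes had 0.783 and 0.865% and heterozygous spermatocytes 0.536 and 0.464%.

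**Figure D5:**
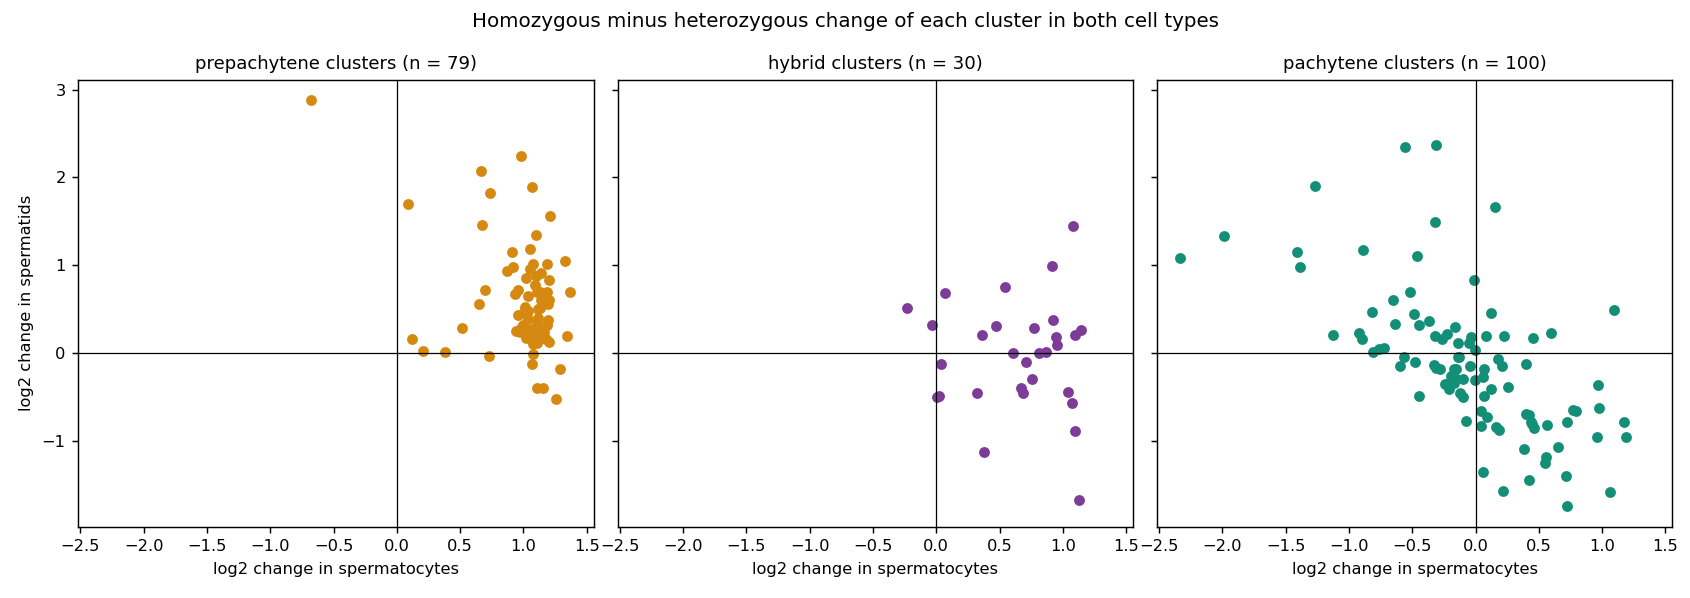
Fitted log2 change, homozygous minus heterozygous, in spermatids (vertical axis) against spermatocytes (horizontal axis), for clusters listed in all 12 small RNA libraries, a panel per class. Prepachytene points gather at about 1 on the horizontal axis and mostly above 0 on the vertical, while pachytene points run from upper left to lower right (Spearman correlation -0.68).

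RNA of round spermatids was sequenced in other libraries (homozygous, heterozygous and wild type, 2 each; 15.3 to 24.9 M rounded counts). Ddx4, the targeted gene, stood at 55.3 and 60.1 TPM in homozygous libraries, against 188 and 182 TPM in heterozygous libraries and 165 and 235 TPM in wild-type libraries. Its log2 change was -1.69 (SE 0.123, edgeR adjusted p = 0.0138). Of 32 tested piRNA pathway genes, 0 rose and 1, Ddx4, fell, beside 1.36% and 0.371% (1.73% in all) of 17809 genes, with 6 of the 32 at an unadjusted p under 0.05, beside 16.7% of all genes (2969 of 17809). DESeq2 called 4 (12.5%), Ddx4, Piwil2, Tdrd1 and Nxf1, beside 4.42% of all genes by the same method.

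Piwil2, encoding the PIWI protein MILI, had 14.7 and 16.5 TPM in homozygous libraries, against 8.21 and 7.69 TPM in heterozygous libraries (log2 0.98, adjusted p = 0.0651). Piwil1, encoding MIWI, had 6.95 and 7.47 TPM, against 9.34 and 7.98 TPM (adjusted p = 0.715). Both passed when either or both wild-type libraries were left out of the fit, beside 29.2 to 32.3% of all genes in those fits. Mybl1, encoding A-MYB, had 8.72 and 8.65 TPM, against 9.53 and 8.14 TPM, and these ranges overlapped (adjusted p = 0.927). With any 1 of the 4 compared RNA libraries left out, a group held 1 library, assumed to vary like the others. The calls of Ddx4 and the host genes called below therefore rest on all 4 libraries. In such fits the log2 change of Ddx4 ranged from -1.74 to -1.64 and that of Cdc42ep3 from 1.28 to 1.33.

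The number of host genes called in RNA depended on the libraries in the fit. Of 110 tested host genes 4 rose and 1 fell, beside the same background of 1.36% and 0.371%, and 28 of the 110 had a p under 0.05 before adjustment, beside 16.7% of all genes. DESeq2 called 8 of the hosts (7.27%), among them Tfcp2l1, beside 4.42% of all genes. Fitted on the 4 compared libraries alone, 45 hosts (40.9%) and 11 pathway genes (34.4%) passed, beside 32.3% of all genes, and without wild-type library 1 or 2 the hosts called were 46 or 44, beside 30.1 or 29.2% of all genes. Over the 106 with a listed cluster the Spearman correlation of both changes was -0.14, as a description across genes. Cdc42ep3 RNA had 127 and 123 TPM in homozygous libraries, against 48.8 and 50.5 TPM in heterozygous libraries, a rise of 1.31 log2 units (SE 0.119, adjusted p = 0.0188) in the direction of its cluster. 1700006A11Rik RNA had 48.0 and 42.1 TPM, against 11.2 and 10.04 TPM, a rise of 2.07 (SE 0.173, adjusted p = 0.016) opposite to the fall of its cluster. The other called hosts, named because they passed the test, were Mgll, encoding monoacylglycerol lipase (log2 2.22), Gm5878 (1.01) and Ccdc117 (-1.15), and their clusters had fitted log2 changes of 1.44, -0.26 and 0.01.

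Hosts of other large cluster changes did not pass the test in 6 libraries. Hif1an, Mroh4, Rab11fip4 and Tfcp2l1 passed when either or both wild-type libraries were left out, beside 29.2 to 32.3% of all genes. Zdhhc23 had 0.27 and 0.24 TPM in homozygous and 0.22 and 0.29 TPM in heterozygous libraries, Ppp1r15b 8.40 and 8.33 against 7.88 and 7.52 TPM, and Exoc8 6.07 and 6.31 against 6.41 and 7.48 TPM. Rab11fip4 (0.77, adjusted p = 0.164), Hif1an (0.36), Mroh4, the host of pi-1700016M24Rik.1 (-0.17), Igsf9b (-0.35), Tfcp2l1 (-1.18, adjusted p = 0.0904), Naa38 (-0.20), Mafg (-0.14), Foxo3 (0.23) and Hist1h1a (-0.09) were not called either. In the RNA libraries, 0 genes of the marker lists for round spermatids, pachytene spermatocytes, spermatogonia, Sertoli, Leydig and immune cells passed the edgeR test. An unadjusted p under 0.05 was found for 3 of 10 round spermatid, 3 of 10 pachytene spermatocyte, 0 of 7 spermatogonia, 4 of 5 Sertoli, 2 of 4 Leydig and 1 of 6 immune genes tested, beside 16.7% of all genes. DESeq2 called 3 of 5 Sertoli genes (Clu, Aard and Inha) lower and 1 of 4 Leydig genes (Insl3) higher, beside 4.42% of all genes in either direction. These genes were named after their values were seen, and DESeq2 called 0 of the other marker lists. The summed level of the Sertoli list was 22.0 and 22.4 TPM in homozygous libraries, against 40.5 and 39.2 TPM in heterozygous libraries. That of the Leydig list was 53.8 and 52.6 TPM, against 28.5 and 26.0 TPM. The round spermatid list summed to 45724 and 45272 TPM, against 41223 and 43195 TPM, and the pachytene spermatocyte list to 2720 and 2831 TPM, against 2744 and 2734 TPM. The part of cell composition in the cluster results was not tested.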

How the data were processed

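Small RNA libraries were made from 200 ng of total RNA with the MGIEasy Small RNA kit, and spermatid RNA libraries from 1 ug with the NEBNext Ultra kit, per the labels' protocols. The authors deposited, for each piRNA cluster, counts of reads as whole numbers, and per gene the expected counts (rounded here to whole numbers) and TPM, per the file headers. Trim Galore and mm10 appear in the submitters' processing notes. The aligner, the counter and the treatment of reads matching several clusters are not stated. Library totals beyond clusters were not used, so cluster values are shares of cluster reads. Coordinates are as deposited; whether starts count from 0 or 1 is not stated.

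Clusters not listed were set to 0. Counts were tested with edgeR 4.0.16 in R 4.3.3 (quasi-likelihood F test, filterByExpr, which kept all 214 clusters, Benjamini-Hochberg threshold 0.05) over 12 small RNA libraries, with normalization factors of 1. RNA counts used TMM over 6 libraries. Alternatives were TMM, RLE, DESeq2 1.42.0, no filter, fewer libraries, a replicate block, other treatments of unlisted clusters, the 5 most abundant clusters left out, thinning to the smallest total and leaving out each library. Counts were also simulated with the same fixed dispersion in every library, and with 1 mean profile for all groups apart from a minority of changed features. On such cluster counts the test recovered 20 of 20 clusters changed by 0.5 and 20 of 20 changed by 1 (log2), and called 5 of 174 unchanged ones. On such RNA counts it recovered 33 of 62 genes changed by 1 and 62 of 69 changed by 2. In the data most clusters passed and spread differed between groups, so these rates do not show how the test behaves on these libraries. Libraries of a small RNA group differed beyond counting noise in every group. The chi-square divided by its degrees of freedom was 431 for the homozygous spermatid pair, 200 for the heterozygous spermatid pair and 60.6 to 184 for the other groups. The fit estimated the spread of a cluster over all 12 libraries together. Its p-values therefore do not measure the wider spread of the homozygous spermatid pair alone.

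Of 114 host symbols 112 were matched. Clusters named were the 10 most abundant, the 10 largest rises and falls past the test without overlap, those unlisted in a compared file, the 10 with the smallest interaction p, and all at 5 long-studied bands. Genes named were their hosts, pathway genes past the test, Ddx4, Piwil1, Piwil2 and Mybl1. The members and lists were chosen with earlier results of these data known. Isoform tables and the CB RNA libraries were not used.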

Additional observations from a re-analysis of the deposited data

Results flagged for a closer look

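The homozygous minus heterozygous change differed between spermatids and spermatocytes in 160 clusters by the edgeR interaction test. The fitted differences below are spermatid change minus spermatocyte change in log2 units under shares, where the median cluster stood at -0.42; under TMM scaling the median was -0.26 and under RLE 0.08. Each of these clusters passed the test of the difference itself. The part that the likeness of heterozygous spermatids to homozygous spermatocytes has in these differences was not tested.

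The change was more positive in spermatids in 7-qD1-19431.1 (3.32), 10-qA3-2592.1 (3.17), pi-Cdc42ep3.1 (2.91), 5-qF-4633.1 (2.68), 15-qD3-14639.1 (2.56), 15-qE1-8387.1 (2.37), 12-qE-23911.1 (1.33), 5-qF-14224.1 (1.25) and 17-qA3.3-27363.1 (0.52).

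It was more negative in spermatids in pi-Exoc8.1 (-2.80), 17-qC-935.1 (-2.63), 8-qE1-3748.1 (-2.46), pi-1700006A11Rik.1 (-2.10), 18-qE1-1295.1 (-1.91), 13-qA3.1-213.1 (-1.86), 6-qC3-6258.1 (-1.47), 17-qA3.3-352.1 (-1.22), 10-qC1-2617.1 (-1.08) and 6-qF3-1063.1 (-1.06).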

How the results depend on the processing

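The count of 160 called clusters ranged from 137, when the fit held the 4 compared libraries alone, to 167 with a replicate block, and from 140 to 174 when 1 library was left out. DESeq2 called 157, of which 151 were among the 160. The interaction count ranged from 141 to 163 over the settings and from 147 to 178 without 1 library. Same-numbered homozygous and heterozygous spermatid libraries deviated together by a correlation of 0.09 over 209 clusters. With only 2 pairs this cannot tell whether the numbers pair them, and the labels do not say so. A block cannot alter a class difference between 2 pairs and says nothing about it. With the block 9-qC-31469.1 (adjusted p = 0.0384) and 7-qD2-40.1 (0.0411) passed, and the hosts Mgll (0.0604), Cdc42ep3 (0.0604), Ccdc117 (0.0641) and Gm5878 (0.0894) did not, beside 0.0674% of all genes called.

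With the 5 most abundant clusters left out the prepachytene difference was 6.04 and the pachytene one -6.22 percentage points, and the hybrid one turned to 0.179. The hybrid difference ranged from -0.168 to 0.128 without 1 library, and was 0.0234 without homozygous spermatid replicate 1 and 0.128 without heterozygous spermatid replicate 1. The prepachytene difference ranged from 3.75 to 5.23 and the pachytene one from -5.36 to -3.58. The log2 change of 17-qA3.3-26735.1 turned to -0.072 under TMM, -0.043 under RLE and -0.043 by DESeq2, and ranged from -0.021 to 0.11 without 1 library, turning without homozygous spermatid replicate 2. That of 6-qF3-8009.1 turned to -0.096, -0.069 and -0.069, and ranged from -0.020 to 0.053, turning without homozygous spermatid replicate 1. With unlisted clusters set to the lowest listed count, 1-qE2.3-2.1 turned to 0.73 and pi-Hist1h1a.1 to 1.10, both past the test. The fitted value of pi-Foxo3.1 ranged from -8.76, with only the homozygous library at 0 reads left, to 1.91. pi-Lsmd1.1 did not pass with the 6 spermatid or 4 compared libraries, or without either heterozygous spermatid library (adjusted p 0.0696 and 0.0871).

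Host genes called were 5, against 8 by DESeq2, 10 without a filter, 45 with the 4 compared libraries and 1 with the replicate block. Pathway genes called were 1, against 4 by DESeq2, 3 without a filter and 11 with the 4 compared libraries. Without wild-type library 1 or 2, 46 or 44 hosts and 11 pathway genes passed. Without 1 homozygous or heterozygous library a group held 1 library, so the RNA calls rest on all 4 compared libraries. In such fits the log2 change of Ddx4 ranged from -1.74 to -1.64 and that of Mgll from 2.06 to 2.40. Without 1 library the RNA change turned sign for Hist1h1a (-1.44 to 0.59), Mafg (-0.32 to 0.037), Mybl1 (-0.17 to 0.074) and Zdhhc23 (-0.17 to 0.22). Of all genes, 1.73% passed in the main fit, 4.42% by DESeq2, 3.13% without a filter and 32.3% with the 4 compared libraries. The share was 0.0674% with the replicate block and 30.1 or 29.2% without wild-type library 1 or 2. The cause of these shifts between settings was not tested. Groups of 2 libraries and the shallower homozygous files limit the precision of small clusters.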
